A study of Mus musculus with 10 samples.

Results

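Aminoacyl-tRNA synthetases are the enzymes that join each amino acid to its transfer RNA, the step that ties the genetic code to the protein made. Cytosol and mitochondria have largely separate sets of these enzymes, both encoded in the nucleus, and Kars and Gars each give rise to an enzyme for both compartments. Several cytosolic enzymes are bound into a multisynthetase complex on the scaffold proteins Aimp1, Aimp2 and Eef1e1 (Aimp3). Many cytosolic synthetase genes are known targets of Atf4, the transcription factor of the amino acid and integrated stress responses, and Wars is also known as an interferon-gamma-induced gene. The 36 genes described here were chosen by symbol from the 16936 protein-coding genes of the deposited table: an amino acid letter followed by "ars", with Farsa and Farsb for the subunits of the phenylalanine enzyme. Symbols ending in 2 were taken as mitochondrial (17 genes) and the others as cytosolic (19 genes). The rule used no measured value. It does not reach Eprs, which charges both glutamate and proline tRNAs in the cytosol, or Tarsl2, a threonyl-tRNA synthetase-like gene, and both are given separately.

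The cells were mouse bone marrow-derived macrophages, derived from marrow in the presence of GM-CSF (50 ng/mL, 7 days). Of the 10 samples 5 were left untreated, and 5 were exposed for 24 h to PLG, which the series' design text gives as human plasminogen, the precursor of the protease plasmin. The labels give no strain, sex or age, tie no replicate to a mouse or culture and name no control preparation, and each p-value therefore reflects sample-to-sample spread that may be technical. Expression was deposited as FPKM, a read count scaled to gene length and to library size.

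Reads on the genes of the table, counted back from the step size of low FPKM, numbered 28426118 to 64214533 per sample, and 1 read on a gene of 1 kb was worth 0.0141 to 0.0313 FPKM. Correlations between samples were at least 0.976 within a group and at most 0.868 between groups. The repeat-like gene models (Gm10800, Gm10801 and Gm21738) summed to 1827 to 82720 FPKM and were lowest in PLG 3, PLG 4 and untreated 2, so calls were also made without these models and without these samples. Of the macrophage markers 8 of 8 exceeded 1 FPKM, and their summed level was 5874 to 7395 FPKM in untreated and 3137 to 3243 FPKM in PLG samples. Most of this sum was Lyz2 (5792 and 2000.1 FPKM on average), which was lower with PLG. Cd68 (356 and 243 FPKM), Csf1r (245 and 213.5 FPKM), Mertk (23.5 and 6.19 FPKM) and Itgam (38.2 and 22.4 FPKM) were also lower. Adgre1 (80.0 and 177 FPKM) and Cd14 (33.7 and 508 FPKM) rose and Fcgr1 did not pass. Dendritic cell markers summed to 2686 to 3216 and 2527 to 2955 FPKM, with Ccr7 (38.1 and 542 FPKM), Zbtb46 and Flt3 higher and Cd74, Itgax and H2-Ab1 lower. Neutrophil markers summed to 10.5 to 19.96 and 16.6 to 26.3 FPKM. Mast cell markers summed to 0.712 to 3.9 and 1.94 to 3.70 FPKM, while those of T cells, B cells and fibroblasts stayed under 1.1 FPKM. The part of these marker shifts in the results was not tested. In bulk samples, fewer cells of a type and less RNA per cell cannot be told apart.

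Across the family the response to PLG was small and went both ways. Of 34 members tested, 6 were higher with PLG and 6 were lower (limma, adjusted p under 0.05), and 22 did not pass. In the same fit 29.1% of the 9997 tested genes were higher and 31.3% were lower, together 60.4%, beside 12 of the 34 members in both directions together. The median size of the difference, regardless of direction, was 0.16 on the log2(FPKM + 1) scale for the members and 0.30 for all tested genes. None of the 34 members reached a difference of 1 on this scale, against 14.1% of all tested genes. This depends on the pseudocount: with a pseudocount of 0.1 the difference of Ears2 was 1.57, and with voom on recovered reads 1.74, beside 18.2% and 18.8% of all tested genes past 1. Ears2 also exceeded 1 without untreated 4 or without PLG 2. The groups did not overlap for 9 members, beside 47.2% of all tested genes.

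**Figure D1:**
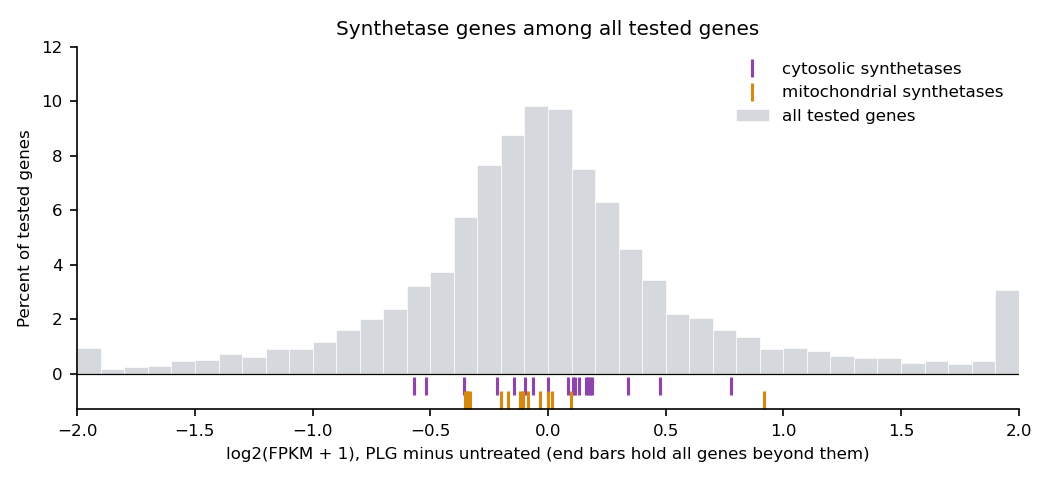
Histogram of the difference between PLG and untreated samples on the log2(FPKM + 1) scale for the 9997 tested genes, as percent of genes per bar, with a tick below for each of the 34 tested synthetase genes. The members lie between -0.57 and 0.92, in the middle of a distribution whose outer bars hold all genes beyond a difference of 1.9.

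Members of both compartments went in both directions. Among the 19 cytosolic genes 5 were higher (Wars, Aars, Cars, Nars and Dars), 4 were lower (Vars, Farsb, Iars and Lars) and 10 did not pass, with a median difference of 0.11. Of 15 tested mitochondrial genes 1 was higher (Ears2), 2 were lower (Iars2 among them) and 12 did not pass, with a median of -0.11, beside -0.02 for all tested genes. Summed over the 19 genes, the cytosolic level was 291 ± 14.2 FPKM in untreated (SD, n = 5, from 276 to 310) and 310.2 ± 7.96 FPKM in PLG samples (SD, n = 5, from 304 to 324), and these ranges overlapped. By structural class, the 17 tested members of class I, whose catalytic domain is a Rossmann fold, held 3 higher and 4 lower genes. Class II, built on another fold, also had 17 tested members, with 3 higher and 2 lower.

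**Figure D2:**
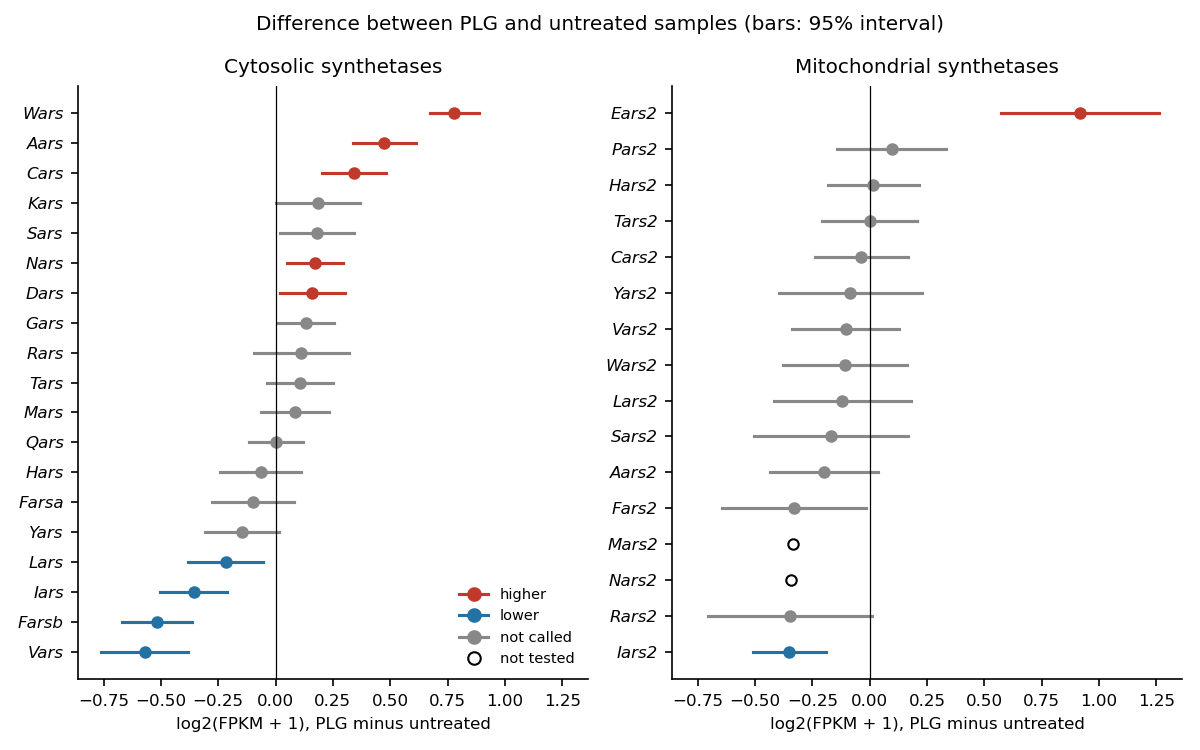
Difference between PLG and untreated samples for the synthetase genes reported by name, on the log2(FPKM + 1) scale, cytosolic on the left and mitochondrial on the right, with 95% intervals, where red genes were higher, blue genes lower and grey genes did not pass. The coloured genes passed the test, and Mars2 and Nars2 are open circles because they fell under the filter on low values.

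Wars, the tryptophanyl-tRNA synthetase (ENSMUSG00000021266.16, chr12:108860030-108894174, GRCm38), had the largest rise of the cytosolic set. Its level was 12.9, 13.4, 13.8, 14.0 and 14.2 FPKM in untreated samples 1 to 5 and 25.1, 22.7, 24.2, 25.1 and 23.9 FPKM in PLG samples 1 to 5. The lowest PLG sample was well above the highest untreated one, and neither group spread by more than a few FPKM. The means were 13.7 ± 0.537 and 24.2 ± 1.01 FPKM (SD, n = 5 each), a ratio of 1.77, and the log2 difference was 0.78 (SE 0.0496, limma adjusted p = 9.892e-09). Wars passed in 24 of 24 alternative analyses.

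Aars, the alanyl-tRNA synthetase (ENSMUSG00000031960.14, chr8:111033144-111057664), stood at 17.6, 19.8, 16.5, 16.1 and 19.7 FPKM without PLG. With PLG it stood at 25.7, 24.8, 23.8, 26.3 and 25.8 FPKM, again with no overlap. The ratio of the means was 1.41 and the log2 difference 0.47 (SE 0.064, limma adjusted p = 2.095e-05). The Aars model shares 1326 exonic bases, 14.29% of its length, with Exosc6 on the same strand, and reads there cannot be told apart from those of Exosc6, which was not analysed here.

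Cars, the cysteinyl-tRNA synthetase (ENSMUSG00000010755.17, chr7:143557230-143600090), had 7.38, 6.96, 7.65, 7.59 and 8.46 FPKM in untreated samples. PLG samples had 9.69, 9.15, 9.65, 10.6 and 10.5 FPKM. Every PLG sample was above every untreated one, with a ratio of 1.30 and a log2 difference of 0.34 (SE 0.0651, limma adjusted p = 4.497e-04).

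Nars and Dars, which charge the tRNAs of asparagine and aspartate, also passed, by smaller margins and with groups that overlapped. Nars was among the most abundant members, at 38.2, 36.2, 43.7, 38.6 and 42.8 FPKM in untreated and 43.3, 47.0, 43.8, 45.3 and 45.5 FPKM in PLG samples. Its difference was 0.17 (SE 0.0558, limma adjusted p = 0.0166), and it did not pass without PLG 3, PLG 4 and untreated 2 (adjusted p = 0.0719) or in 4 analyses with another scaling (up to 0.687 with quantile normalization). Dars lay between 7.99 and 8.76 FPKM in untreated and between 8.35 and 10.6 FPKM in PLG samples, with a difference of 0.16 (SE 0.0658, limma adjusted p = 0.0496). It passed in 8 of 24 alternatives (adjusted p from 0.0125 to 0.311) and lost the call without any one of untreated 1, 2, 3 or 5 or of PLG 1, 3, 4 or 5.

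**Figure D3:**
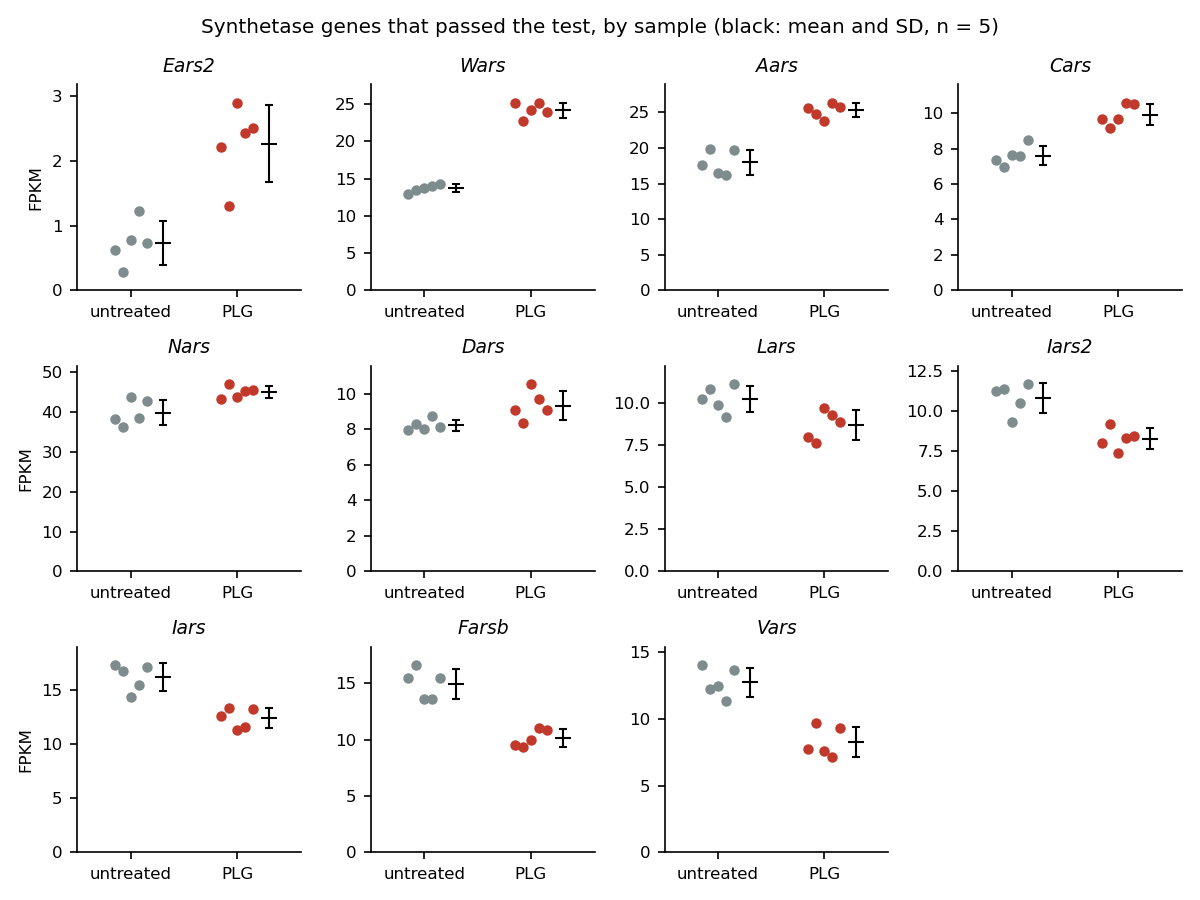
FPKM in each of the 10 samples for synthetase genes that passed the test, ordered from the largest rise (Ears2) to the largest fall (Vars), with the mean and SD of each group of 5 in black and every axis starting at 0. The groups are apart for Ears2, Wars, Aars, Cars, Iars2, Iars, Farsb and Vars and overlap for Nars, Dars and Lars.

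The largest fall was that of Vars, the valyl-tRNA synthetase (ENSMUSG00000007029.16, chr17:35000987-35016322). It gave 14.0, 12.2, 12.5, 11.4 and 13.7 FPKM in untreated samples and 7.76, 9.68, 7.56, 7.12 and 9.31 FPKM in PLG samples. No PLG sample reached the lowest untreated one. The mean fell from 12.7 ± 1.09 to 8.28 ± 1.14 FPKM (SD, n = 5 each), a log2 difference of -0.57 (SE 0.0874, limma adjusted p = 6.841e-05).

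Farsb, the beta subunit of the cytosolic phenylalanyl-tRNA synthetase (ENSMUSG00000026245.16, chr1:78417975-78488897), fell from 15.5, 16.6, 13.7, 13.6 and 15.4 FPKM to 9.53, 9.33, 9.98, 11.0 and 10.8 FPKM. Its groups did not overlap, and the log2 difference was -0.52 (SE 0.0706, limma adjusted p = 2.324e-05). Farsa encodes the alpha subunit, with which Farsb assembles into a tetramer of paired subunits. It lay at 9.32, 8.14, 7.33, 8.45 and 9.22 FPKM in untreated and 7.48, 8.02, 7.23, 9.32 and 7.33 FPKM in PLG samples, and did not pass (-0.10, 95% interval -0.28 to 0.08, limma adjusted p = 0.327). The ratio of Farsa to Farsb was 0.569 ± 0.0544 in untreated (SD, n = 5, from 0.490 to 0.622) and 0.778 ± 0.0782 in PLG samples (SD, n = 5, from 0.676 to 0.859), so the paired subunit messages moved closer in level in every PLG sample. The Farsb model shares 248 exonic bases with Sgpp2 on the opposite strand, a gene at 0.122 and 0.0868 FPKM on average.

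Iars and Lars, the isoleucyl- and leucyl-tRNA synthetases, complete a set with Vars: the cytosolic enzymes of the branched-chain amino acids were 3 of the 4 cytosolic genes that fell. This grouping was made after the values were seen. Iars (ENSMUSG00000037851.13, chr13:49682100-49734267) was at 17.3, 16.8, 14.3, 15.5 and 17.1 FPKM in untreated and 12.6, 13.4, 11.3, 11.6 and 13.3 FPKM in PLG samples, which did not overlap (-0.36, SE 0.0683, limma adjusted p = 4.562e-04). Lars lay between 9.16 and 11.1 FPKM in untreated and between 7.63 and 9.71 FPKM in PLG samples, which overlapped (-0.22, SE 0.0757, limma adjusted p = 0.0241). Its call was lost without untreated 5 (adjusted p = 0.0595), without PLG 1 (0.0635), without PLG 2 (0.0629) and in 3 other alternatives, the highest being 0.316 with scaling to a common sum. Iars shares 1656 bases at 96.0% identity with the gene model Gm4849, so its reads may be divided.

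The 10 cytosolic genes that did not pass ranged from -0.15 for Yars (tyrosine) to 0.19 for Kars (lysine). Gars, the glycyl-tRNA synthetase and one of the 3 most abundant members, had 32.3, 30.9, 27.5, 31.7 and 33.2 FPKM without and 33.5, 32.4, 34.9, 36.3 and 33.5 FPKM with PLG. Its interval was 0.01 to 0.25 and its adjusted p 0.0571 in limma. Sars, the seryl-tRNA synthetase (0.18), had an adjusted p of 0.0525 and Kars one of 0.0726 in limma, and Kars, Sars and Gars passed in 4, 5 and 3 alternatives. Rars (arginine), Tars (threonine), Mars (methionine) and Hars (histidine) differed by 0.11, 0.11, 0.09 and -0.07. Qars, the glutaminyl-tRNA synthetase, averaged 14.8 FPKM in both groups, with a 95% interval of the difference from -0.11 to 0.12.

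Enzymes of the multisynthetase complex went in both directions. Of the 8 tested enzyme genes 1 was higher (Dars), 2 were lower (Iars and Lars) and 5 did not pass, and the median was 0.09. Eprs, its glutamyl-prolyl enzyme, lay at 8.55 to 9.28 FPKM in untreated and 9.31 to 10.2 FPKM in PLG samples, groups that did not overlap, but its difference of 0.10 did not pass in limma (adjusted p = 0.149). Among 7 genes of the scaffold and of the elongation factor 1 complex that binds Vars, 1 was higher and 2 were lower, with a median of 0.01. Both lists stand beside 29.1% higher and 31.3% lower of all tested genes. The scaffold gene Aimp1 went from 2.9996 ± 0.678 to 4.18 ± 0.372 FPKM (SD, n = 5 each; 0.39, limma adjusted p = 0.0112). The elongation factor genes Eef1g (67.1 to 58.4 FPKM, -0.20, limma adjusted p = 0.0053) and Eef1a1 (893 to 790.3 FPKM, -0.18, limma adjusted p = 0.0164) were the lower ones. Eef1b2 was the most abundant gene of this list that did not pass, at 34.8 and 35.7 FPKM.

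Promoter sequence was compared for the 26 members whose start had a window in RefSeq (GRCm38.p6, 250 bases before to 50 after the start). The motif of the Atf4-binding C/EBP-ATF response element, TGATGNAA on either strand, occurred in 5 of 26 members (19.2%), in 4.51% of the 27025 genes with a window and in 3.97% of all 32851 windows. The 5 members were Aars, Gars, Iars, Tars and Yars, whose differences were 0.47, 0.13, -0.36, 0.11 and -0.15. Of the 5, 1 rose (Aars), 1 fell (Iars) and 3 did not pass. Among the called cytosolic genes Wars, Cars, Nars, Vars and Lars had no window and were not searched. How the motif relates to the direction of the response cannot be read from these counts. Gars and Tars hold it upstream of the start. Aars holds it from base -112 and again from base 10 relative to its RefSeq start. That window (chr8:111033592-111033891) lies inside the Aars gene model given above. The windows of Gars and Tars are shown as examples, with the element in capitals as its reverse complement.

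Gars, chr6:55037901-55038000, plus strand: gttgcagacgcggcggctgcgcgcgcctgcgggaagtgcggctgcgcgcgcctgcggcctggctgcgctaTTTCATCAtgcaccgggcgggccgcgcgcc

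Tars, chr15:11399666-11399758, minus strand: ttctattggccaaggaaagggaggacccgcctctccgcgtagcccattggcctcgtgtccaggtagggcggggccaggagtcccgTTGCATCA

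The E-box CACGTG, its own reverse complement, occurred in 5 of 26 members (19.2%, Aars, Ears2, Farsb, Iars and Tars) and in 8.09% of genes with a window. These members include 2 that rose (Aars and Ears2), 2 that fell (Farsb and Iars) and 1 that did not pass (Tars). The windows of Farsb and Iars are shown as those of the fallen members with this motif, in capitals, and no TGATGNAA match lies in the stretches printed.

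Farsb, chr1:78488898-78488997, minus strand: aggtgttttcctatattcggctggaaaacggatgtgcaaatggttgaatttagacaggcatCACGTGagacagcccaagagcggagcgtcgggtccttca

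Iars, chr13:49682030-49682099, plus strand: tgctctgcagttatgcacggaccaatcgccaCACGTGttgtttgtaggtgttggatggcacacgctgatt

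The motif of the respiratory-gene factor Nrf1 (GCGCA and GCGC with 1 base between, both strands) lay in 5 of 26 members (19.2%, Farsb, Iars2, Kars, Mars2 and Tars) and in 5.19% of genes. The STAT motif TTCNNNGAA lay in 3 of 26 (11.5%, Aars, Kars and Nars2) beside 9.55%, and the interferon-response motif (GAAA and GAAA with 2 bases between, both strands) in 1 of 26 (3.85%, Qars) beside 3.99%. Matches of different motifs did not overlap. The promoter of Wars was not among the 26.

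Among the mitochondrial enzymes Ears2, the glutamyl-tRNA synthetase (ENSMUSG00000030871.11, chr7:122037213-122067263), had the largest rise of all members. It was at 0.630, 0.281, 0.782, 1.22 and 0.736 FPKM in untreated samples and at 2.21, 1.30, 2.89, 2.42 and 2.50 FPKM in PLG samples. The reads behind these values were 138, 47, 145, 201 and 156 without PLG and 560, 273, 562, 549 and 912 with it. The groups did not overlap, though untreated 4 came close to PLG 2. Its mean went from 0.730 ± 0.337 to 2.26 ± 0.591 FPKM (SD, n = 5 each), a ratio of 3.10. The log2(FPKM + 1) difference, which understates changes at low levels, was 0.92 (SE 0.159, limma adjusted p = 2.058e-04). Ears2 passed the filter on low values through its PLG samples, as untreated 4 was the only untreated sample above 1 FPKM. Limma without the filter gave Ears2 an adjusted p of 0.00137.

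Ears2 starts 88 bases from Ubfd1, a gene on the opposite strand with which it shares 89 exonic bases. Ubfd1 was also higher, at 4.44 ± 0.330 and 7.42 ± 0.898 FPKM (SD, n = 5 each; 0.63, limma adjusted p = 1.821e-05). No source used here says whether the counting used strand, and reads in the 89 shared bases, 1.73% of the Ears2 model, cannot be told apart.

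In mitochondria Ears2 also charges the tRNA of glutamine with glutamate, and the GatCAB amidotransferase, made of Qrsl1, Gatb and Gatc, turns that glutamate into glutamine. Of these partners Qrsl1 and Gatc moved the other way. Qrsl1 gave 2.77, 3.93, 2.88, 2.90 and 3.05 FPKM without and 1.74, 2.25, 1.29, 1.18 and 1.83 FPKM with PLG (-0.64, SE 0.120, limma adjusted p = 4.028e-04). Gatc gave 11.8, 15.1, 9.47, 14.7 and 14.8 FPKM without and 8.09, 7.17, 8.36, 8.0 and 8.25 FPKM with PLG (-0.64, SE 0.109, limma adjusted p = 1.752e-04). Neither gene's groups overlapped. Gatb averaged 2.44 and 1.64 FPKM, overlapped and did not pass (-0.37, limma adjusted p = 0.056). The ratio of Ears2 to Qrsl1 averaged 0.246 in untreated (from 0.0715 to 0.420) and 1.501 in PLG samples (from 0.578 to 2.24). The ratios to Gatb and Gatc did not overlap between groups either. For Qrsl1 and Gatc this separation follows from the values of the single genes and adds nothing to them.

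**Figure D4:**
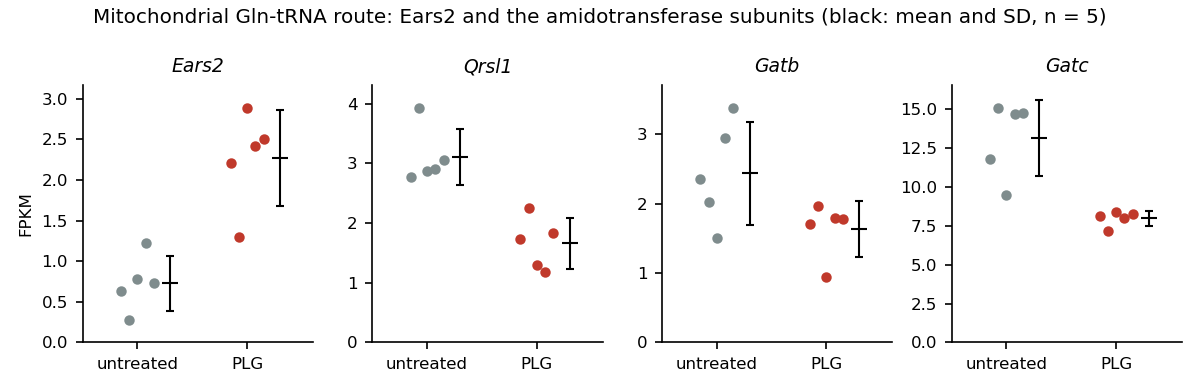
FPKM in each of the 10 samples for Ears2 and the amidotransferase genes Qrsl1, Gatb and Gatc, with the mean and SD of each group of 5 in black and axes starting at 0. Ears2 is higher in all 5 PLG samples, Qrsl1 and Gatc are lower in all 5, and the Gatb groups overlap.

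Iars2, for isoleucine, was among the mitochondrial members that fell. Iars2 (ENSMUSG00000026618.11, chr1:185284726-185329396) went from 11.3, 11.4, 9.37, 10.5 and 11.7 FPKM to 8.02, 9.23, 7.42, 8.33 and 8.47 FPKM (-0.35, SE 0.0733, limma adjusted p = 9.43e-04). Its groups did not overlap. Iars2 shares 2034 exonic bases, 22.89% of its model, with the opposite-strand gene Rab3gap2, which fell from 14.4 ± 1.39 to 7.59 ± 0.385 FPKM (SD, n = 5 each; -0.84, limma adjusted p = 1.83e-07). Without knowledge of strand the reads of this overlap cannot be divided.

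Mars2 and Nars2, for methionine and asparagine, were too low for the test. Mars2 gave 0.915, 0.475, 0.509, 0.587 and 0.870 FPKM without and 0.390, 0.226, 0.234, 0.376 and 0.379 FPKM with PLG, which did not overlap. Nars2 gave 0.807, 1.41, 1.11, 0.920 and 1.12 FPKM without and 0.711, 0.839, 0.444, 0.659 and 0.519 FPKM with PLG, which overlapped between single samples. In a limma fit without the filter the adjusted p-values were 0.00911 and 0.0134. Two-sided exact permutation tests of the means gave p = 0.00794, the smallest that 5 samples against 5 allow, for Mars2 and p = 0.0159 for Nars2, neither adjusted.

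Lars2, the mitochondrial leucyl-tRNA synthetase (ENSMUSG00000035202.8, chr9:123366927-123462666), was the most abundant member by far. The cause of this level was not tested, and FPKM cannot tell whether all reads assigned to Lars2 came from its message. Its level was 177, 188, 169, 158 and 204 FPKM in untreated and 159, 198, 222, 139 and 123 FPKM in PLG samples. The PLG group spread from below to above the untreated one, with means of 179 ± 17.6 and 168 ± 41.4 FPKM (SD, n = 5 each) and a 95% interval of the difference from -0.42 to 0.18. No other mitochondrial member averaged above 10.9 FPKM in either group, so Lars2 set the summed mitochondrial level of 225 ± 19.4 and 208 ± 40.7 FPKM (SD, n = 5 each). Without Lars2 the sum was 45.5 ± 1.78 FPKM in untreated (SD, n = 5, from 43.3 to 47.9) and 39.5 ± 2.29 FPKM in PLG samples (SD, n = 5, from 37.3 to 43.4). Those ranges touched at a single sample, PLG 4, where Rars2 was also high.

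The other 11 tested mitochondrial members that did not pass lay between -0.35 and 0.10. Rars2 (arginine) averaged 4.66 and 3.43 FPKM and Fars2, the single-chain phenylalanine enzyme, 2.83 and 2.06 FPKM, with adjusted p-values of 0.0871 and 0.0636 in limma. Rars2 passed without untreated 2 (adjusted p = 0.026) or without PLG 4 (0.017), and Fars2 without untreated 2 (0.015), without PLG 4 (0.0478) or without PLG 5 (0.0359). Aars2 (alanine, -0.20), Sars2 (serine, -0.17), Wars2 (tryptophan, -0.11), Vars2 (valine, -0.10) and Yars2 (tyrosine, -0.08) had negative differences, as did Cars2 (cysteine, -0.04). Tars2 (threonine), Hars2 (histidine) and Pars2 (proline) were at 0.00, 0.02 and 0.10.

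For 13 amino acids a cytosolic and a mitochondrial enzyme could be set against each other within each sample. The cytosolic to mitochondrial ratio of FPKM was higher in every PLG sample than in every untreated one for 4 of 13 pairs, and lower for 0. These were alanine (Aars to Aars2, 7.23 ± 0.626 and 12.6 ± 2.20), methionine (20.3 ± 5.45 and 44.9 ± 12.6), asparagine (38.5 ± 7.95 and 74.4 ± 18.1) and tryptophan (13.2 ± 2.82 and 29.1 ± 12.1), each as mean ± SD of 5 untreated and 5 PLG samples. For isoleucine both enzymes fell and the ratio stayed close, at 1.49 ± 0.0357 and 1.499 ± 0.0782 (SD, n = 5 each). Leucine was the pair in which the mitochondrial gene was the more abundant, with ratios of 0.0572 ± 0.00158 and 0.0542 ± 0.0146 (SD, n = 5 each). The pairs of methionine, asparagine and tryptophan have denominators of at most 1.1 FPKM on average. Taken singly, 47.2% of all tested genes had groups that did not overlap, and no such share was computed for ratios of other genes.

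**Figure D5:**
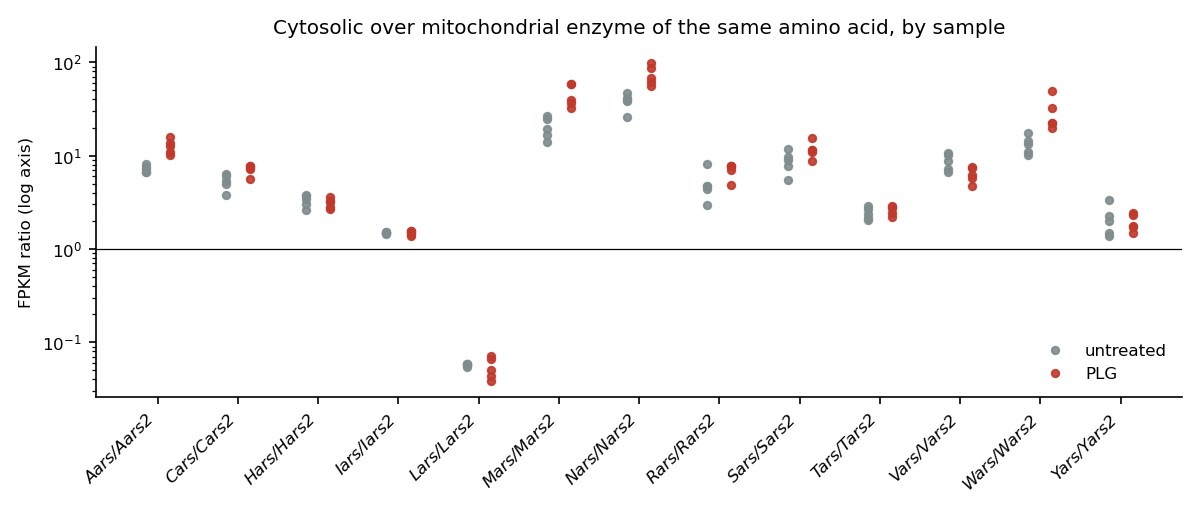
Ratio of the FPKM of the cytosolic to that of the mitochondrial synthetase of the same amino acid in each of the 10 samples, on a log axis with a line at 1. The PLG points lie above all untreated points for Aars, Mars, Nars and Wars, and the leucine pair is the one below 1.

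Tarsl2, outside the rule, fell from 1.45, 1.12, 1.53, 1.53 and 1.82 FPKM to 0.465, 0.433, 0.699, 0.489 and 0.302 FPKM, groups that did not overlap (-0.75, SE 0.102, limma adjusted p = 2.159e-05). It entered the test through its untreated samples alone, as every PLG sample was under 1 FPKM. Limma without the filter gave Tarsl2 an adjusted p of 6.3e-05. Genes of neighbouring charging steps were counted from a list of proofreading and synthetase-like enzymes, of which 1 of 6 tested was higher and 2 were lower, with a median of -0.18. The shares of all tested genes were 29.1% higher and 31.3% lower. Sepsecs, which completes selenocysteine on its tRNA, rose from 3.36 ± 0.224 to 7.31 ± 0.526 FPKM (SD, n = 5 each; 0.93, limma adjusted p = 6.759e-08). Prorsd1 was among the lower genes and fell from 4.95 to 3.71 FPKM (-0.34, limma adjusted p = 0.0247). That call was lost without untreated 1, untreated 5, PLG 1 or PLG 2 (adjusted p from 0.0581 to 0.0661). It was also lost with no filter (limma adjusted p = 0.0544) and with common-sum scaling (0.13), and Prorsd1 passed in 16 of 23 alternatives. Lrrc47 did not pass, at 11.6 and 11.5 FPKM.

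In mitochondria, 6 of 14 genes of tRNA charging and translation factors were lower and 0 higher, with a median of -0.22, beside 31.3% lower and 29.1% higher of all tested genes. Beside Qrsl1 and Gatc, the elongation factor gene Gfm1 fell from 10.5 ± 1.21 to 7.51 ± 0.457 FPKM (SD, n = 5 each; -0.42, limma adjusted p = 3.488e-04). Qrsl1, Gatc and Gfm1 passed also with scaling to a common sum, where the other 3 did not (Mtif2, Guf1 and Mtrf1l, adjusted p from 0.138 to 0.181). Mtif2 passed in 22 of 24 alternatives, but Mtrf1l in 12 of 23 and Guf1 in 11 of 23. Mtrf1l and Guf1 each lost the call without any one of several single samples, such as PLG 2 (limma adjusted p = 0.0994 and 0.0865). Both also lost it with a replicate block (0.0827 and 0.0676). Tufm, the mitochondrial EF-Tu, was the most abundant that did not pass, at 13.5 and 13.3 FPKM. In the cytosol, 1 of 8 tested elongation and termination factors was higher (Etf1, the release factor that reads stop codons, 46.4 to 53.4 FPKM, limma adjusted p = 0.00251) and 3 were lower. These were Eef1g and Eef1a1, given above, and Eef2, the translocase (508 to 433 FPKM, limma adjusted p = 6.612e-04), while Eif5a did not pass at 132 and 125 FPKM. With common-sum scaling none of these 4 passed (adjusted p = 0.0732 for Etf1, 0.321 for Eef1g, 0.448 for Eef1a1 and 0.2195 for Eef2). Of 24 alternatives Etf1 and Eef1a1 passed in 21 and Eef1g and Eef2 in 22. These included common-sum scaling without the repeat-like models, which was added after seeing the data.

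Of 15 tested genes of tRNA maturation 1 was higher, the tRNA ligase gene Rtcb (17.5 to 21.8 FPKM, limma adjusted p = 0.0138), and 2 were lower, Elac1 (3.98 to 2.67 FPKM, adjusted p = 0.00392) and Rpp14 (5.27 to 3.91 FPKM, adjusted p = 0.0071). The median was 0.01, beside -0.02 for all tested genes, of which 29.1% were higher and 31.3% lower. Xpot, the exporter of tRNA from the nucleus, did not pass at 15.6 and 15.7 FPKM. With common-sum scaling Rtcb (adjusted p = 0.0579) and Rpp14 (0.0837) lost their calls. Rtcb passed in 22 of 24 alternatives and Rpp14 in 21 of 23, among them common-sum scaling without the repeat-like models.

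The amino acid response genes, with which many synthetases are known to share Atf4 as a regulator, were counted beside the family. Among all tested genes 29.1% were higher, 31.3% lower and 14.1% beyond a difference of 1. Of 24 tested genes of this list 16 were higher and 3 lower, with a median of 0.68, and 7 were beyond 1. Those of smallest p were the glycine transporter gene Slc6a9 (1.44 ± 0.357 to 10.9 ± 1.33 FPKM, limma adjusted p = 7.133e-10), the cystine transporter gene Slc7a11 (55.5 ± 4.09 to 119.9 ± 5.09 FPKM, 7.478e-10) and the stress-response gene Nupr1 (2.25 ± 0.350 to 8.50 ± 0.762 FPKM, 3.707e-09), each mean ± SD of 5 samples. The lower ones were Slc1a5, a glutamine transporter gene (23.7 to 16.4 FPKM, limma adjusted p = 1.482e-04), Shmt2 (7.76 to 5.71 FPKM, 0.00606) and Atf5 (50.5 to 42.3 FPKM, 0.041). Atf5 lost its call without any one of untreated 3 or 5 or of PLG 1, 2, 3 or 5 (adjusted p from 0.0542 to 0.104). It passed in 14 of 24 alternatives, and lost the call also with no filter (limma adjusted p = 0.0908) and with common-sum scaling (0.264). Slc38a2 did not pass, at 31.3 and 29.1 FPKM. Atf4 itself averaged 48.7 ± 2.90 and 83.2 ± 9.53 FPKM (SD, n = 5 each; limma adjusted p = 7.302e-07).

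Of 8 genes for the kinases of eIF2alpha, their regulators and the phosphatase that reverses them, 2 were higher and 4 lower, with a median of -0.11. Among all tested genes 29.1% were higher and 31.3% lower. Eif2ak2, the kinase PKR, rose from 15.1 ± 1.55 to 28.7 ± 0.676 FPKM (SD, n = 5 each; limma adjusted p = 3.647e-08), and Ppp1r15a, the phosphatase subunit GADD34, from 12.8 ± 1.27 to 26.1 ± 1.89 FPKM (SD, n = 5 each; 4.324e-08). Eif2ak4, the kinase GCN2 that binds uncharged tRNA, fell from 7.80 ± 0.542 to 6.35 ± 0.455 FPKM (SD, n = 5 each; -0.26, limma adjusted p = 0.00526). Impact, an inhibitor of GCN2 activation, fell from 24.7 to 17.6 FPKM (limma adjusted p = 1.57e-04), Eif2ak1 from 11.96 to 10.4 FPKM (0.0174) and Eif2ak3 from 8.25 to 6.64 FPKM (0.00722). With common-sum scaling Eif2ak4 (adjusted p = 0.143), Eif2ak1 (0.354) and Eif2ak3 (0.142) lost their calls, and Eif2ak3 did so without PLG 3, PLG 4 and untreated 2 (0.0667). Of 24 alternatives Eif2ak4 passed in 22 and Eif2ak1 and Eif2ak3 in 21, among them common-sum scaling without the repeat-like models. Ppp1r15b did not pass, at 32.3 and 33.0 FPKM.

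Tryptophan is also used by the kynurenine pathway. Of 3 tested genes of its later steps, Kynu (6.40 to 7.62 FPKM, limma adjusted p = 0.0266) and Haao (0.977 to 1.86 FPKM, 0.00321) were higher and Kmo was lower (2.25 to 0.596 FPKM, 5.445e-05). Kmo entered the test through its untreated samples alone, as every PLG sample was under 1 FPKM. Haao reached 1 FPKM in every PLG sample but, of the untreated samples, only in untreated 1 and untreated 2. It passed in 23 of 23 alternatives, among them the one without the filter. Kynu lost its call without untreated 2 (adjusted p = 0.0585), without untreated 5 (0.0573) or without PLG 3 (0.0721). It passed in 17 of 24 alternatives. The call was also lost with common-sum scaling (limma adjusted p = 0.074) and without PLG 3, PLG 4 and untreated 2 (0.23). Ido1 and Ido2, which open the tryptophan ring, were under the filter, at 0.228 and 1.02 FPKM and at 0.423 and 1.35 FPKM on average. Their groups did not overlap, and limma without the filter gave adjusted p-values of 0.00188 and 0.00116 (exact permutation p = 0.00794 for both, not adjusted).

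Several synthetase genes lie close to or across other genes, which bears on how their reads were assigned. A gene on the opposite strand started within 1 kb of the start of 9 of 36 members (25.0%), beside 11.8% of 16473 genes of the table that were found in GENCODE M21. Hars and Hars2 form such a pair with each other, sharing 195 exonic bases, and neither passed the test. Kars starts beside Terf2ip, Rars2 beside Orc3, Sars2 beside Mrps12, Fars2 beside Lyrm4 and Yars beside S100pbp. Of these neighbours S100pbp (2.68 to 3.53 FPKM, limma adjusted p = 0.00606) was higher, the opposite sign to Yars, which did not pass. Mars shares 68 exonic bases, 1.99% of its model, with the stress gene Ddit3 on the opposite strand, which went from 8.51 to 15.8 FPKM.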

How the data were processed

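The authors deposited FPKM for 16936 protein-coding genes, per the file headers, with each gene's coordinates and length. Without giving their roles, the submitters' processing notes list STAR 2.7.3a, featureCounts 2.0.0, cutadapt 2.10, FastQC 0.11.9 and DESeq2 1.24.0, on GRCm38.p6. Annotation release, strand setting and handling of multiply matching reads were not given in the sources used here. Libraries were made with a NuGen total RNA-seq kit, per the labels' protocols.

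The values were set on the log2(FPKM + 1) scale, and 9997 genes with 1 FPKM or more in 5 or more of the 10 samples entered the test. The comparison was made in R 4.3.3 with limma 3.58.1, an intensity trend and treatment as the only term, with Benjamini-Hochberg adjustment over all tested genes at 0.05. The model was tested on simulated data. Low FPKM times gene length fell on whole multiples of 1 read in 100% of the values tested, within 0.1 read, which gave the reads per sample (depth). Of these whole values 48.8% to 51.9% were odd numbers in each sample, so a denominator of 2 times the size, under which all would be even, was not used. Gene models, overlaps and starts came from GENCODE M21, in which all 36 members had the coordinates of the table, promoter windows from RefSeq, and shared sequence from BLAST+ 2.17.0.

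The synthetases, the other lists and the tests were chosen with earlier results of these data known. Some items are not reported here by name, and counts include them; the other members are all named. Values in all samples are given for the 5 largest rises and falls among the called members and the 3 most abundant, and for some others chosen after their values were seen. From each other list the 3 genes of smallest p and the most abundant that did not pass are named, with others where a count was small. The 24 alternatives changed the pseudocount (0.1 or 5), the filter (none or 5 FPKM), the scaling, the model (no trend, robust fitting, a replicate block, or voom on recovered reads) or the samples. Leaving out 3 repeat-like gene models, or PLG 3, PLG 4 and untreated 2, was added after seeing the data.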

Additional observations from a re-analysis of the deposited data

Results flagged for a closer look

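In 1 of 72 groups of 5 samples (36 members, untreated or PLG), a single sample stood apart by Dixon's test, where chance would mark about 1 in 20. Rars2 in PLG 4 was at 5.12 FPKM while the other 4 PLG samples lay between 2.85 and 3.199 FPKM, a gap of 0.848 of the group's range. Without PLG 4 the difference for Rars2 was -0.47 on the log2(FPKM + 1) scale and passed in limma (adjusted p = 0.017), against -0.35 and 0.0871 with all 10 samples.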

How the results depend on the processing

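No tested member or list gene that was called changed sign under any of the 24 alternatives. Wars, Aars, Cars, Vars, Farsb, Iars and Iars2 passed in 24 of 24 and Ears2 in 23 of 23 in which it could be tested. The count of cytosolic genes higher, 5, was 3 with common-sum scaling, quantile normalization, or common-sum scaling without the mitochondrially encoded genes or without the repeat-like models, and 8 with median-of-ratios scaling. Leaving out 1 sample gave 4 to 6. The 4 cytosolic genes lower became 3 to 5 without 1 sample. Of mitochondrial genes 1 was higher, and 0 with a filter of 5 FPKM, under which Ears2 is not tested. The 2 mitochondrial genes lower became 4 with no filter (which admits Mars2 and Nars2), with voom, without the repeat-like models and without PLG 3, PLG 4 and untreated 2, and 1 with common-sum scaling or a filter of 5 FPKM. Leaving out 1 sample gave 2 to 4, with 4 without untreated 2 or PLG 4. In the other lists 24 genes were higher (23 to 25 without 1 sample) and 22 lower (19 to 22), the latter 14 with a filter of 5 FPKM and 10 with common-sum scaling, with or without mitochondrially encoded genes. Apart from the filters, which change the genes tested, the cause of these shifts was not tested. The median of all tested genes moved by less than 0.1 under every scaling, from -0.07 to 0.02. Same-numbered samples did not deviate together (correlations from -0.121 to 0.0988, own number the best match for replicate 1 alone). The labels state no pairing, and this check cannot show that there was none. With a replicate block 4 cytosolic genes were higher and 3 lower, 1 mitochondrial gene was higher and 3 lower, and 24 other-list genes were higher and 20 lower. Low level limited the test most for Mars2 and Nars2, which were under the filter.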
